A study of Mus musculus with 6 samples.

Results

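Proteins that enter the secretory pathway are folded, glycosylated and, when misfolded, disposed of in the endoplasmic reticulum (ER), and the genes examined here encode that machinery. A list of 45 genes was taken in 5 roles, namely 12 chaperones and their cofactors, 9 disulfide and prolyl isomerases, 10 genes of membrane translocation, 7 of N-glycosylation and 7 of ER-associated degradation. Probe sets annotated to exactly 1 gene measured 44 of them among 18193 genes in all, and of several probe sets for a gene the brightest over the 6 arrays was kept. Sec61g, a subunit of the translocation channel, was not analysed here, since its probe set is annotated to several genes.

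Nascent secretory and membrane proteins enter the ER through the Sec61 channel, where the oligosaccharyltransferase adds a sugar tree to asparagine side chains and signal peptidase removes the signal peptide. Chaperones such as BiP, the lectins calreticulin and calnexin and the protein disulfide isomerases then help the chain to fold, and chains that fail are drawn back into the cytosol through the Sel1l and Syvn1 complex and degraded. The unfolded protein response, run by the sensors IRE1, PERK and ATF6, adjusts the expression of many of these genes to the folding load. Osteoclasts and their precursors secrete proteases and acid hydrolases and place many glycoproteins on their surface.

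The cells were RAW264.7, mouse monocytic cells that can be driven towards osteoclasts with the cytokine RANKL. They had been kept for 24 hours in low sodium, at 120 mmol/l (3 arrays), or in normal sodium, at 137 mmol/l (3 arrays), in medium whose osmolality was held at 290 mOsm/l with mannitol in the low-sodium case. The cytokines M-CSF (10 ng/ml) and RANKL (30 ng/ml) are listed with the low-sodium cultures, and the text does not settle whether the normal-sodium cells also received them, so a difference below is one between the media as labelled, and sodium, mannitol and cytokines cannot be told apart where they went together. The labels state 4 biological replicates per group, of which 3 per group were analysed here. All values come from 1 cell line, and in bulk RNA fewer cells of a kind and less RNA per cell cannot be told apart.

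The 2 arrays of replicate 3 differed from those of replicates 1 and 2. The spiked-in Bacillus RNAs had a mean log2 intensity of 8.52 on the replicate 3 arrays, against 10.34 on those of replicates 1 and 2, while hybridisation controls had 12.45 and 12.35. Replicate 3 is therefore treated as a batch with 1 array of each group, and differences are given within it as well. The 8 macrophage markers were high on every array, with a summed intensity of 109187 to 119009 in low sodium and 103215 to 109537 in normal sodium. Of 8 osteoclast markers 4 rose in the fit described next (Ctsk, Mmp9, Dcstamp and Ocstamp) and 0 fell. With the replicate number as a block 2 of these, Dcstamp and Ocstamp, passed (limma adjusted p = 0.0535 for Ctsk and 0.0688 for Mmp9). The 8 markers' summed intensity was 3719 to 7158 in low sodium and 3333 to 4051 in normal sodium. Among the macrophage markers Adgre1 rose. The part of these marker differences in the values below was not tested. Markers of T and B cells summed to 36.0 to 61.6 in low sodium and 42.4 to 81.3 in normal sodium, those of fibroblasts and osteoblasts to 136 to 262 in low sodium and 121 to 185 in normal sodium, and those of epithelia to 181 to 365 in low sodium and 260 to 509 in normal sodium. In these last 3 lists 0 genes passed the fit, and 0 of their genes were listed at an intensity of 0.

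All values are log2(intensity + 1), and a difference is the low-sodium mean minus the normal-sodium mean on that scale. The planned comparison, limma on all 6 arrays without a batch term, called 0 of the 44 genes at an adjusted p of 0.05, and 0.00550% of all genes. Of the 44, 5 had an unadjusted p under 0.05, and all 5 were lower in low sodium (Fkbp11, Sdf2l1, Fkbp2, Pdia5 and Pdia4), against 3.86% of all genes. A second limma fit, with replicate 3 as a batch term and a trended prior (the batch-term fit), called 10 of the 44 lower and 1 higher, against 3.81% and 3.78% of all genes, and 6.26% and 6.24% of the 10880 genes at or above the median brightness of all probe sets. The words "rose" and "fell" are used below only of genes that passed this fit, and a difference is given ± its standard error from the same fit (n = 3 against 3). That standard error is moderated towards the prior and leaves out the batch shift, so it is not the plain spread of the arrays. It was 0.061 for Manf and 0.059 for Stt3a, against 0.26 and 0.38 in the planned fit, while for Fkbp14 it was larger (0.33 against 0.27). The batch-term fit had been taken up in an earlier analysis of these arrays with its counts in view, so its p-values do not weigh as much as those of the planned comparison. When the prior was held constant the batch term gave 0 calls among the 44. With the replicate number as a block and a trended prior 4 were lower (Fkbp11, Fkbp2, Manf and Sdf2l1) and 0 higher, against 1.29% and 1.70% of all genes. Without low-sodium replicate 1 or 2 the batch-term fit called 2 or 3 lower and 0 higher. Without normal-sodium replicate 1 or 2 it was 4 or 3 lower and 0 higher, and without either replicate 3 array, where it rests on replicates 1 and 2, 17 lower and 2 higher.

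Over the 44 genes the median difference was -0.16, against -0.0081 over all genes. Of the 44, 33 were below 0, against 50.8% of all genes and 52.5% of the brighter genes. Within replicates 1 and 2 the median was -0.15, and within replicate 3 it was also -0.15. Taken by replicate number, 27 of the 44 were lower in low sodium under all 3 numbers, against 20.7% of all genes and 26.7% of the brighter genes, and 7 were higher under all 3, against 20.0% and 24.1%. The groups did not overlap in 14 genes that were lower in low sodium, against 9.07% of all genes and 12.6% of the brighter genes, and in 0 that were higher, against 8.44% and 11.0%. The roles differed in direction: the medians were -0.24 for chaperones, -0.36 for isomerases, -0.17 for translocation, -0.15 for glycosylation and 0.15 for degradation, a difference between roles that was not tested.

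**Figure D1:**
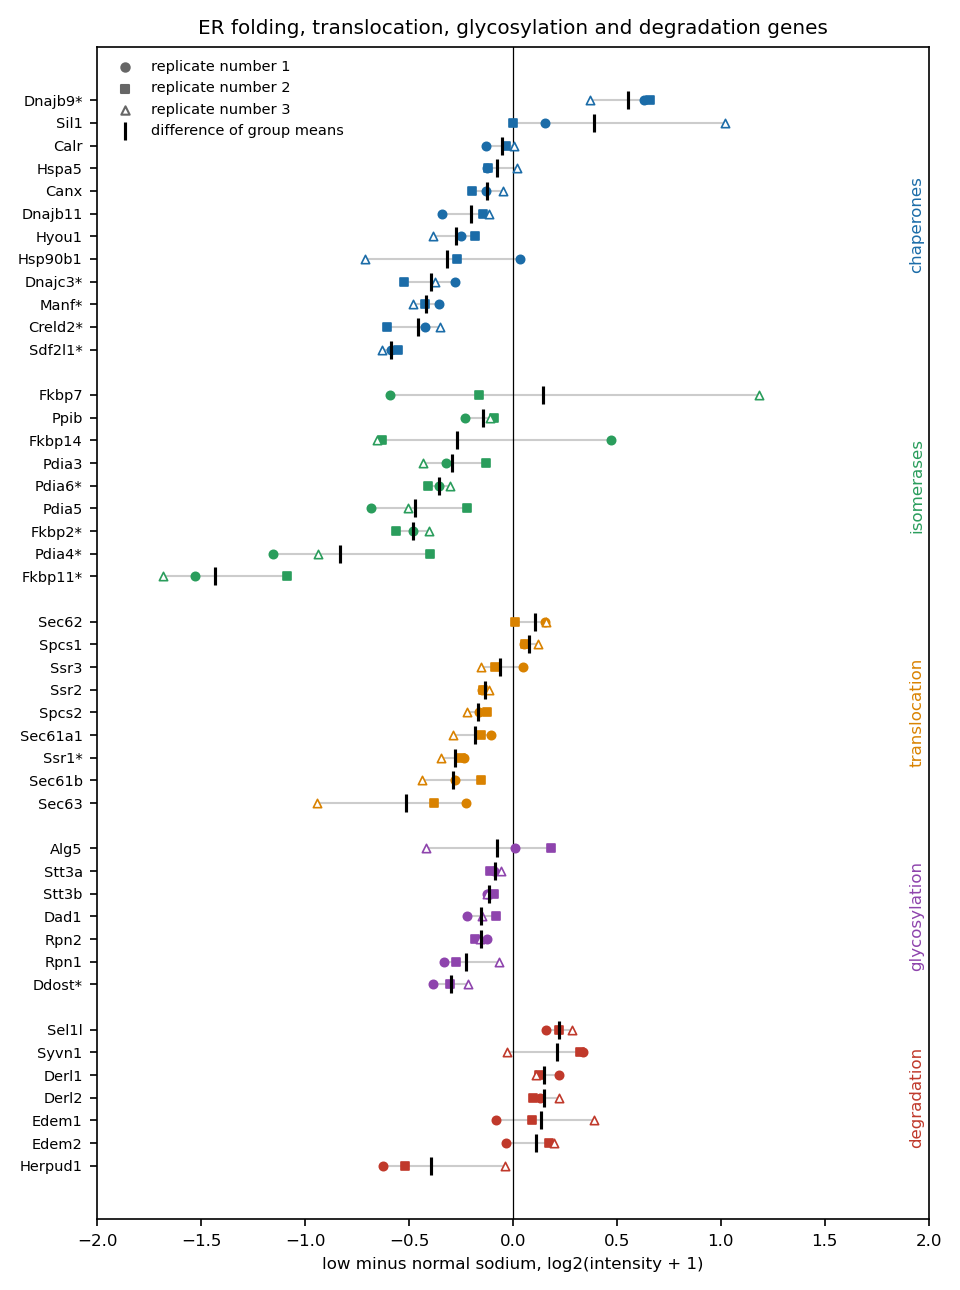
Each line is 1 of the 44 genes, grouped by role, and the horizontal axis gives the log2 difference of low minus normal sodium; filled circles, filled squares and open triangles are the differences under replicate numbers 1, 2 and 3, black bars the difference of the group means, and asterisks mark the 11 genes past the batch-term threshold. Chaperones and isomerases spread below 0 down to -1.43 in Fkbp11, while 6 of the 7 degradation genes have a mean difference above 0.

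Of the 12 chaperones and cofactors 4 fell, 1 rose and 7 did not pass, where 6.26% of the brighter genes fell and 6.24% rose. Sdf2l1, an ER-resident cofactor of BiP, had 11.94, 11.87 and 11.61 in low sodium, against 12.52, 12.42 and 12.24 in normal sodium. Every low-sodium array was below every normal-sodium array, and the gene fell by 0.59 on the log2 scale, 1.5-fold, with a difference of -0.59 ± 0.065 (SE, n = 3 against 3, batch-term limma adjusted p = 0.00359, planned limma adjusted p = 0.546). The difference was -0.57 within replicates 1 and 2 and -0.63 within replicate 3, and Sdf2l1 was 1 of 2 members, with Fkbp11, that passed the batch-term fit without any 1 of the 6 arrays. Manf, a secreted ER stress protein that binds BiP, measured 12.99, 13.00 and 12.43 in low sodium, against 13.35, 13.42 and 12.91 in normal sodium. It was lower in low sodium under each replicate number, although the replicate 3 array in normal sodium lay below 2 low-sodium arrays, and it fell with a difference of -0.42 ± 0.061 (batch-term limma adjusted p = 0.00838). Creld2, an ER stress-induced protein with disulfide isomerase activity, showed the same layout. Its values were 11.51, 11.47 and 10.97 in low sodium, against 11.93, 12.08 and 11.32 in normal sodium. Again only the normal-sodium array of replicate 3 reached into the low-sodium range, and the difference was -0.46 ± 0.075 (batch-term limma adjusted p = 0.0135, with the replicate block 0.0550). Dnajc3, a J-domain partner of BiP that is also an inhibitor of the kinase PERK, fell too, with groups that did not overlap and a difference of -0.39 ± 0.076 (batch-term limma adjusted p = 0.0239, with the replicate block 0.0894). Its 4 other bright probe sets were lower by less, at -0.27 to -0.021. They did not pass (batch-term limma over all probe sets, adjusted p = 0.599 to 0.957), so the fall of Dnajc3 rests on 1 probe set.

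Dnajb9, another J-domain partner of BiP that also restrains IRE1, was the 1 member that rose. It had 10.91, 10.89 and 9.96 in low sodium, against 10.27, 10.23 and 9.59 in normal sodium. Low sodium was higher under each replicate number, but the replicate 3 arrays lay lower as a pair and made the groups overlap. Dnajb9 rose 1.47-fold with a difference of 0.55 ± 0.089 (batch-term limma adjusted p = 0.0125), and it did not pass with the replicate number as a block (adjusted p = 0.0531) or the planned limma fit (adjusted p = 0.756).

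The abundant general chaperones did not pass. Hspa5, which encodes BiP, the central chaperone of the ER, measured 14.39, 14.36 and 14.45 in low sodium, against 14.52, 14.49 and 14.43 in normal sodium. The groups overlapped, and the difference of -0.075 ± 0.061 had the opposite sign in replicate 3 (0.021). Hsp90b1, which encodes the ER form of HSP90 (GRP94), had 13.79, 13.62 and 12.77 in low sodium, against 13.76, 13.89 and 13.48 in normal sodium. The low-sodium array of replicate 3 alone stood far below the rest, so that replicates 1 and 2 gave -0.12 and replicate 3 gave -0.71. On the other bright probe set of Hsp90b1 that array did not stand far apart. There the values were 13.44, 13.34 and 13.15 in low sodium, against 13.64, 13.71 and 13.38 in normal sodium. That difference of -0.26 did not pass either (batch-term limma over all probe sets, adjusted p = 0.0652). For the lectin chaperones, which hold glycoproteins that are still folding, Calr measured 14.05, 14.06 and 14.14 in low sodium, against 14.17, 14.09 and 14.13 in normal sodium. Canx, the membrane-bound lectin, measured 13.32, 13.28 and 13.52 in low sodium, against 13.46, 13.47 and 13.56 in normal sodium. On these probe sets both were within a narrow band on all arrays, with differences of -0.051 ± 0.06 for Calr and -0.13 ± 0.06 for Canx. The 2 other bright probe sets of Canx disagreed in sign, at -0.28 and 0.20, and did not pass (batch-term limma over all probe sets, adjusted p = 0.125 and 0.506). Those of Calr differed by -0.12 and -0.17. Hyou1, a nucleotide exchange factor of BiP, had a difference of -0.27 ± 0.068 and lay just outside the threshold (batch-term limma adjusted p = 0.0540). Its 2 other bright probe sets differed by -0.35, which passed, and -0.42, which did not (batch-term limma over all probe sets, adjusted p = 0.0405 and 0.0996). Dnajb11, a J-domain protein that binds nascent chains, had a difference of -0.20 ± 0.073. Sil1, the other exchange factor of BiP, went the other way at 0.39 ± 0.19, which came from replicate 3 (1.02) rather than replicates 1 and 2 (0.079).

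**Figure D2:**
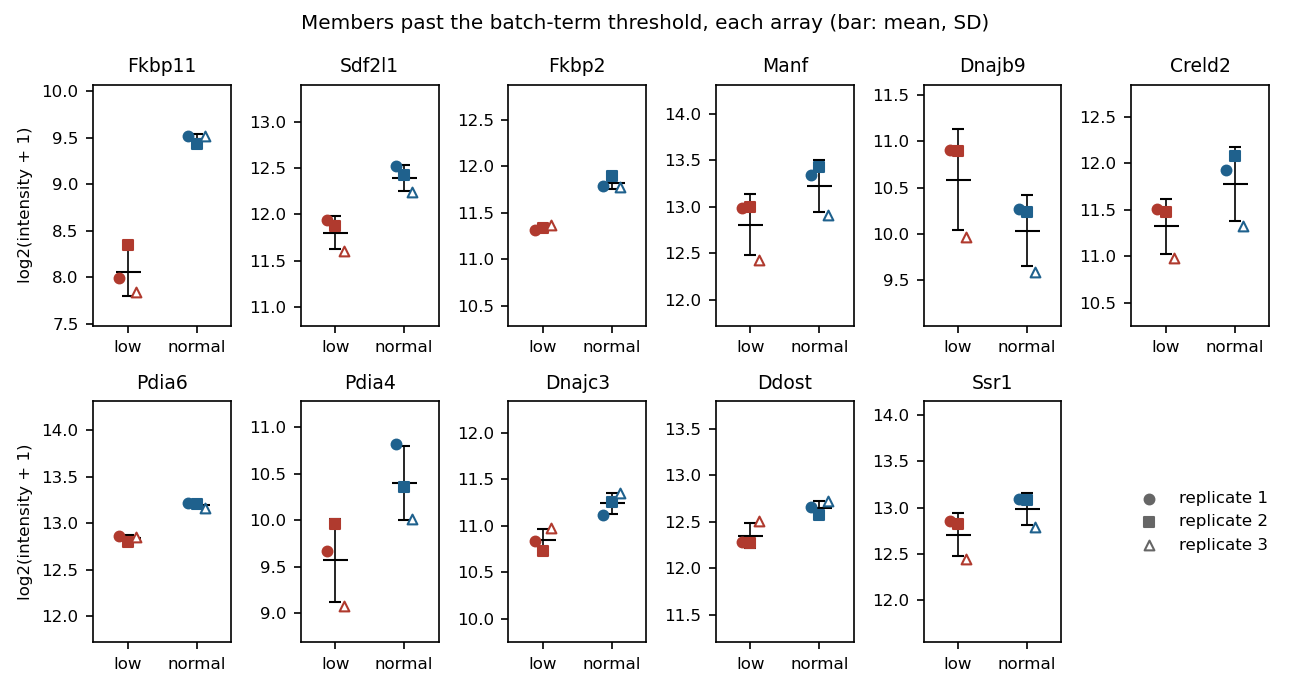
Each panel shows 1 of the 11 members past the batch-term threshold, with log2(intensity + 1) of every array in low sodium (left) and normal sodium (right); circles, squares and open triangles are replicates 1, 2 and 3, and bars give the mean and SD of 3 arrays. All panels span the same range of 2.6 log2 units, so that the small differences of Pdia6, Ddost and Ssr1 can be set against that of Fkbp11, and Dnajb9 is the 1 gene that is higher in low sodium.

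Among 9 isomerases 4 fell, 0 rose and 5 did not pass, where 6.26% of the brighter genes fell and 6.24% rose. Fkbp11, a prolyl isomerase of the ER membrane that is prominent in secretory cells, had the largest difference of the 44. It measured 7.99, 8.35 and 7.83 in low sodium, against 9.52, 9.44 and 9.52 in normal sodium. The 3 normal-sodium arrays lay within 0.1 log2 units and all low-sodium arrays lay more than 1 unit below them, and Fkbp11 fell 2.7-fold with a difference of -1.43 ± 0.15 (batch-term limma adjusted p = 0.00308, planned limma adjusted p = 0.293). Its 1 other bright probe set did not show this, with 7.49, 6.64 and 5.28 in low sodium, against 7.43, 7.24 and 3.66 in normal sodium, so the fall rests on 1 probe set. That second probe set lay lower in replicate 3 in both media and differed by 0.36. Fkbp2, a smaller prolyl isomerase of the ER lumen, measured 11.31, 11.34 and 11.37 in low sodium, against 11.79, 11.90 and 11.77 in normal sodium. Here replicate 3 did not stand apart, the groups were separate, and the gene fell with a difference of -0.48 ± 0.069 (batch-term limma adjusted p = 0.00834).

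Of the disulfide isomerase family, which forms and reshuffles disulfide bonds, the 9 isomerases hold Pdia3, Pdia4, Pdia5 and Pdia6, and all 4 lay below 0. Pdia6 had 12.86, 12.80 and 12.86 in low sodium, against 13.21, 13.21 and 13.16 in normal sodium. The arrays within each medium were almost equal, and Pdia6 fell 1.28-fold with a difference of -0.36 ± 0.059 (batch-term limma adjusted p = 0.0142, with the replicate block 0.0668). Pdia4 varied more between arrays and had the second largest difference of the 44, -0.83 ± 0.14, at which it fell (batch-term limma adjusted p = 0.0159, with the replicate block 0.0517) with -1.15, -0.40 and -0.94 under replicate numbers 1, 2 and 3. Pdia3, the partner of calreticulin and calnexin, measured 13.48, 13.48 and 13.67 in low sodium, against 13.81, 13.61 and 14.10 in normal sodium. It did not pass, with a difference of -0.30 ± 0.077 (batch-term limma adjusted p = 0.0642), and Pdia5 did not either at -0.47 ± 0.12, although its groups did not overlap. Ppib, or cyclophilin B, an abundant prolyl isomerase, measured 13.12, 13.26 and 13.80 in low sodium, against 13.34, 13.35 and 13.91 in normal sodium. Replicate 3 was high in both media and the difference was -0.14 ± 0.064. The further prolyl isomerases Fkbp7 and Fkbp14 did not hold one direction: Fkbp7 differed by -0.38 in replicates 1 and 2 and 1.18 in replicate 3, and Fkbp14 by 0.47, -0.63 and -0.65 under the 3 replicate numbers.

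Of 9 measured translocation genes 1 fell, 0 rose and 8 did not pass, where 6.26% of the brighter genes fell and 6.24% rose. A single call among so few genes says little about the role. Ssr1, a subunit of the TRAP complex that sits beside the channel, had 12.86, 12.83 and 12.44 in low sodium, against 13.09, 13.08 and 12.79 in normal sodium. Each replicate number was lower in low sodium, and Ssr1 fell with a difference of -0.28 ± 0.06 (batch-term limma adjusted p = 0.0349, with the replicate block 0.126). All 3 of its other bright probe sets were lower as well. Its complex partners did not pass, with -0.14 ± 0.06 for Ssr2 and -0.063 ± 0.064 for Ssr3. Sec61a1, the pore-forming subunit of the channel, had 12.53, 12.55 and 12.55 in low sodium, against 12.63, 12.71 and 12.84 in normal sodium. The groups did not overlap, yet the difference was only -0.18 ± 0.066 and did not pass (batch-term limma adjusted p = 0.156), with 4 of 5 other bright probe sets on the same side at -0.28 to -0.42. Of these 4 the one at -0.42 passed (batch-term limma over all probe sets, adjusted p = 0.0435). The rest of the 4 did not (adjusted p = 0.0585 to 0.0995 in the same fit). Sec61b, a small subunit of the same channel, had 12.95, 13.08 and 13.12 in low sodium, against 13.23, 13.24 and 13.56 in normal sodium. It was lower on every low-sodium array and did not pass either (difference -0.29 ± 0.074, batch-term limma adjusted p = 0.0590). Sec63, which links BiP to the channel, had 10.57, 10.42 and 9.07 in low sodium, against 10.79, 10.79 and 10.01 in normal sodium. Its difference of -0.52 ± 0.14 did not pass, was -0.30 in replicates 1 and 2 and -0.94 in replicate 3, and 1 of 4 further bright probe sets had the opposite sign. Sec62, the partner of Sec63, and the signal peptidase subunit gene Spcs1 were slightly higher at 0.11 ± 0.075 and 0.076 ± 0.058, and Spcs2, of the same peptidase, was lower at -0.17 ± 0.059.

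All 7 N-glycosylation genes lay below 0 by small amounts, from -0.30 to -0.075, where 52.5% of the brighter genes lay below 0. Of the 7, 1 fell and 6 did not pass, where 6.26% of the brighter genes fell. Ddost, a subunit of the oligosaccharyltransferase, measured 12.28, 12.27 and 12.51 in low sodium, against 12.66, 12.57 and 12.72 in normal sodium. The groups did not overlap, and Ddost fell 1.23-fold with a difference of -0.30 ± 0.065 (batch-term limma adjusted p = 0.0349, with the replicate block 0.116). Rpn1, which presents substrates to the same enzyme, had 13.74, 13.74 and 13.77 in low sodium, against 14.08, 14.01 and 13.84 in normal sodium. Low sodium was lower on every array and on all 4 other bright probe sets, at a difference of -0.23 ± 0.07 that did not pass (batch-term limma adjusted p = 0.106). Rpn2, its partner subunit, had 12.56, 12.53 and 12.45 in low sodium, against 12.68, 12.72 and 12.61 in normal sodium. Again every low-sodium array was lower and the difference of -0.16 ± 0.058 did not pass. Stt3a, one of the catalytic subunits, had 12.68, 12.69 and 11.83 in low sodium, against 12.78, 12.80 and 11.89 in normal sodium. Both replicate 3 arrays lay well below the others, by far more than the difference of -0.087 ± 0.059 between the media. Stt3b, the other catalytic subunit, had a difference of -0.11 ± 0.064, Dad1 one of -0.15 ± 0.066 and Alg5, which makes the glucose donor for the sugar tree, one of -0.075 ± 0.12.

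Of the 7 degradation genes 6 had a difference above 0, against 8951 of all 18193 genes and 5165 of the 10880 brighter genes. In the batch-term fit 0 rose and 0 fell, and 0 passed the planned limma fit, also at an unadjusted p under 0.05. Among the 19 further degradation genes described below, 10 lay above 0 and 9 below. Whether the 7 lean as a role was not tested. Sel1l, the scaffold of the main retrotranslocation complex, had 11.58, 11.66 and 11.35 in low sodium, against 11.42, 11.43 and 11.06 in normal sodium. Low sodium was higher under each replicate number and on all 4 other bright probe sets, and the difference of 0.22 ± 0.067 did not pass (batch-term limma adjusted p = 0.0998). Syvn1, the ubiquitin ligase of that complex, had 10.85, 10.90 and 9.85 in low sodium, against 10.51, 10.57 and 9.88 in normal sodium. Low sodium was the higher group within replicates 1 and 2 (0.33) and not within replicate 3 (-0.029), and its other bright probe set differed by -0.19. Derl2, a channel-like component, had 11.71, 11.71 and 11.38 in low sodium, against 11.57, 11.61 and 11.16 in normal sodium. The difference of 0.15 ± 0.066 was close to that of its relative Derl1, 0.15 ± 0.071. Of the 3 further bright probe sets of Derl1, 2 had the same sign and the other differed by -0.098. Edem1 and Edem2, mannosidase-like proteins that mark glycoproteins for disposal, differed by 0.13 ± 0.092 and 0.11 ± 0.084. Herpud1, a stress-induced organiser of the complex, went against the rest with 10.21, 10.45 and 10.46 in low sodium, against 10.84, 10.97 and 10.50 in normal sodium. Its groups did not overlap and its difference was -0.39 ± 0.13 without passing (batch-term limma adjusted p = 0.126), at -0.57 in replicates 1 and 2 and -0.037 in replicate 3.

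Several members are read by more than 1 probe set, which gives a second measurement on the same RNA. For 27 members at least 1 further probe set was bright, 54 in all, and 45 of these (83.3%) had a difference of the same sign as the probe set used, against 73.9% over all genes with a bright probe set. In 18 of the 27 members every bright probe set had the same sign. By role the counts were 12 of 13 for chaperones, 3 of 4 for isomerases, 15 of 18 for translocation, 6 of 8 for glycosylation and 9 of 11 for degradation. Among the 11 members past the batch-term threshold 4 had such a further probe set, and Fkbp11 was the 1 of these 4 in which it pointed the other way. These counts go by sign and not by size. The further probe set of Pdia6 differed by -0.075, against -0.36 for the one used. For Dnajc3 the further ones gave -0.27 to -0.021, against -0.39, and for Ssr1 -0.62 to -0.075, against -0.28.

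**Figure D3:**
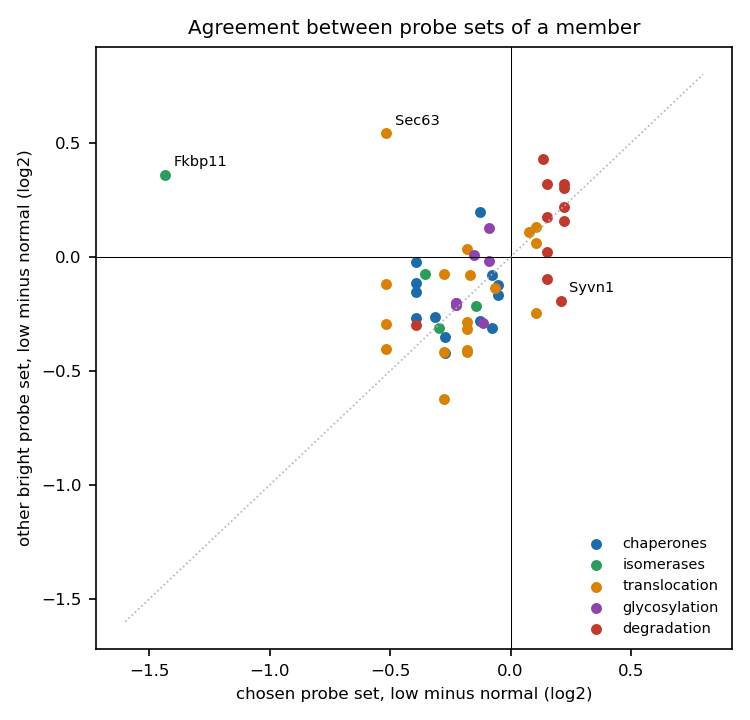
Each point is a further bright probe set of a member, with the low minus normal log2 difference of the probe set used on the horizontal axis and that of the further probe set on the vertical axis; colours give the role and the dotted line marks equality. Of the 54 points 45 lie in the quadrants of equal sign, and Fkbp11, Sec63 and Syvn1 are labelled as members with a point outside them.

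Other genes of the same pathway, taken from 7 lists drawn up by function, did not lean the same way. Of 124 measured genes 8 rose (6.45%) and 5 fell (4.03%), near the 6.24% and 6.26% of the brighter genes. Over all genes the shares were 3.78% and 3.81%. The median difference of the 124 was 0.024, with 60 below 0 (48.4%, against 50.8% of all genes). With the replicate block 4 rose (Alg10b, Ern1, Trib3 and Creb3) and 0 fell, so that 9 of the 13 calls were lost, at limma adjusted p-values of 0.0724 to 0.142. Among 14 further genes of oxidative folding 0 rose and 2 fell, namely the disulfide isomerase gene Txndc5 at -0.34 ± 0.066 and the peroxiredoxin gene Prdx4 at -0.34 ± 0.062, for which 1 of 2 further bright probe sets had the opposite sign. P4hb, the founding member of the disulfide isomerase family, had 14.41, 14.44 and 14.10 in low sodium, against 14.40, 14.36 and 14.55 in normal sodium. It was lower only in replicate 3, and its difference of -0.12 ± 0.10 did not pass. Of 19 further targeting and translocon genes 0 rose and 0 fell, with differences between -0.25 and 0.31. Of 26 further genes of sugar tree assembly 2 rose and 1 fell: Alg10b, a glucosyltransferase of the last assembly steps, rose at 0.81 ± 0.13, Mpdu1, needed for use of the dolichol-linked sugar donors, rose at 0.41 ± 0.079, and Ostc, a subunit of the oligosaccharyltransferase, fell at -0.27 ± 0.062, with its other bright probe set going the other way. Among 11 genes of sugar trimming and lectin transport 1 rose, the mannosidase gene Man1a at 0.47 ± 0.083, and 0 fell. Of 19 further degradation genes 1 rose, Herpud2 at 0.36 ± 0.081, 0 fell and the median was 0.072. Of 19 genes of export from and retrieval to the ER 0 rose and 0 fell.

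Of 16 stress signalling genes 4 rose and 2 fell in the batch-term fit, against 6.24% and 6.26% of the brighter genes. With the replicate block 3 rose and 0 fell, since Xbp1, Atf6b and Ddit3 did not pass (limma adjusted p = 0.0877, 0.105 and 0.0753). Xbp1, the transcription factor gene spliced by IRE1 that drives many chaperone and translocation genes, measured 13.51, 13.49 and 13.25 in low sodium, against 13.82, 13.80 and 13.56 in normal sodium. The groups did not overlap, replicates 1 and 2 gave -0.31 and replicate 3 gave -0.31, and Xbp1 fell (difference -0.31 ± 0.056, batch-term limma adjusted p = 0.0188, with the replicate block 0.0877) with all 3 other bright probe sets on the same side. Ern1, which encodes IRE1 itself, measured 10.05, 9.93 and 10.43 in low sodium, against 9.17, 9.14 and 8.87 in normal sodium. It rose with a difference of 1.07 ± 0.16, while 1 of 2 further bright probe sets had the opposite sign. Splicing of Xbp1 and activity of IRE1 were not measured here. The other sensor genes did not pass, with -0.26 ± 0.15 for Atf6, which came from replicate 3 (-0.74), and -0.098 ± 0.098 for Eif2ak3, the gene of PERK. Trib3, a pseudokinase gene that is a target of ATF4 and CHOP, had 10.89, 10.80 and 9.98 in low sodium, against 9.27, 9.38 and 7.91 in normal sodium. Low sodium was higher on every array and Trib3 rose 3.26-fold with a difference of 1.70 ± 0.13 (batch-term limma adjusted p = 0.00108). Creb3, a membrane-bound transcription factor gene, rose at 0.55 ± 0.073. The remaining 2 calls, Ddit3 and Atf6b, were named after their values had been seen: Ddit3, which encodes CHOP, rose at 1.73 ± 0.36 and Atf6b, a relative of Atf6, fell at -0.37 ± 0.076.

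**Figure D4:**
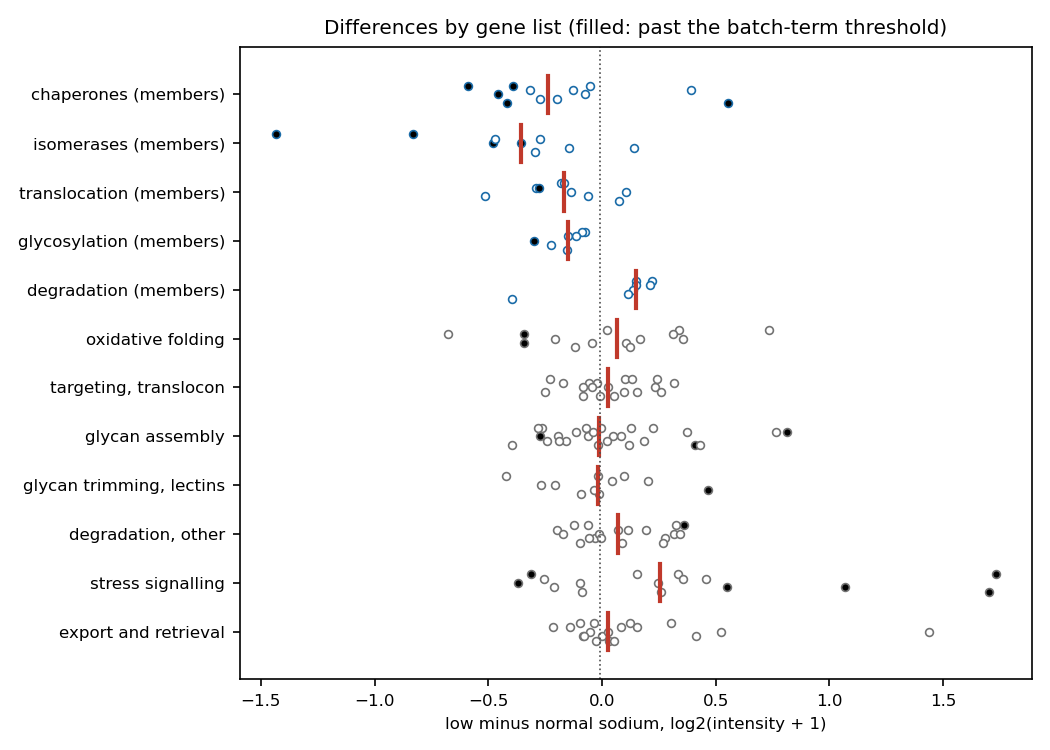
Each point is 1 gene, with the low minus normal log2 difference on the horizontal axis and the gene list on the vertical axis; filled points passed the batch-term fit, red bars are list medians and the dotted line is the median of all genes at -0.0081. The first 5 lists are the 44 genes by role, and the stress signalling list holds the points furthest to the right, Ddit3 and Trib3, next to Xbp1 and Atf6b on the left.

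Promoter sequences were examined because the members that fell include known targets of the unfolded protein response, whose factors ATF6 and XBP1 act through the ER stress response element (ERSE). The RefSeq table of build GRCm38.p6, which gives the 250 bases before and 50 bases after each start, held 44 windows for 38 of the 44 genes. ERSE was searched on both strands as CCAAT, then 9 bases of any kind, then CCACG, and ERSE-II as ATTGG, then 1 base of any kind, then CCACG. The windows of the 44 genes that held ERSE and those that held ERSE-II were different ones. ERSE was found in 8 of the 44 windows (18.2%) and in 0.119% of all 32851 windows, and ERSE-II in 2 of the 44 (4.55%) and in 0.0365% of all. The matches are shown 5′ to 3′ on the strand of the motif with the fixed letters in capitals, since they let the elements of members that fell be set beside those of members that did not pass.
Creld2, ERSE: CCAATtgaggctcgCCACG
Dnajc3, ERSE: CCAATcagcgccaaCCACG
Pdia6, ERSE: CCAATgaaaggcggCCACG
Hspa5, ERSE: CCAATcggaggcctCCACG
Hsp90b1, first ERSE: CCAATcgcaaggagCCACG
Hsp90b1, second ERSE: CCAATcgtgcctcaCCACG
Calr, ERSE: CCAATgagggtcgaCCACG
Canx, ERSE: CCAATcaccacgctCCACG
Syvn1, ERSE: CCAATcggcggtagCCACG
Herpud1, ERSE-II: ATTGGgCCACG
Dnajb11, ERSE-II: ATTGGcCCACG

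Of the 10 genes with either element, Creld2, Dnajc3 and Pdia6 fell, 0 rose and 7 did not pass, at a median difference of -0.26. Of the 28 genes whose windows held neither, 6 fell and Dnajb9 rose, at a median of -0.15, so members that fell were found with and without an exact match in the window. Near matches and sequence outside the window were not searched, so a gene without a match cannot be said to lack the element. Manf, which fell, was 1 of the 6 genes that had no window. The element in Creld2 lies on the strand opposite to the gene, from -126 to -108 relative to the start, while those of Dnajc3 (-105 to -87), Pdia6 (-98 to -80) and Hspa5 (-65 to -47) lie on the gene's own strand. Syvn1, a degradation gene with a difference above 0, holds one at -44 to -26, and the ERSE-II match of Dnajb11 lies after its start. A shorter motif bound by XBP1, TGACGTG, was searched on both strands, was found in 2.01% of all windows and in those of Hspa5 and Fkbp11 among the members, and it shared no letters with the ERSE of Hspa5. The 250 bases before the start are given on the plus strand, which is the strand of all 5 genes, with ERSE letters in capitals, for the 3 members that fell and, beside them, Hspa5 and Syvn1, which did not pass.
Creld2, chr15:88819396-88819645, plus strand: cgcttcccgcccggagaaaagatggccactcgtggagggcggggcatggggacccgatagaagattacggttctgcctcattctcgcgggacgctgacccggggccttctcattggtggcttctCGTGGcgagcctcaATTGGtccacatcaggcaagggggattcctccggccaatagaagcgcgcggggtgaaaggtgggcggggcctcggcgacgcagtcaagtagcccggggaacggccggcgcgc
Dnajc3, chr14:118937682-118937931, plus strand: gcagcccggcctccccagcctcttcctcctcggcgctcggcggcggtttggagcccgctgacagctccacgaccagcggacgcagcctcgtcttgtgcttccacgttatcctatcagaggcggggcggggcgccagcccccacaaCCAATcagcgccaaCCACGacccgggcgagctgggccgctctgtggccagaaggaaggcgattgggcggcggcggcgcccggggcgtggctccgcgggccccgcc
Pdia6, chr12:17266339-17266588, plus strand: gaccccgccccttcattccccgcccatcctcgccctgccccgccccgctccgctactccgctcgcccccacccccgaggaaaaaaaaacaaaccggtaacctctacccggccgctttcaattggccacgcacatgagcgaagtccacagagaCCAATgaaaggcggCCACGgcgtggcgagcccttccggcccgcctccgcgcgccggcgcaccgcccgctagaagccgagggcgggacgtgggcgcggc
Hspa5, chr2:34771840-34772089, plus strand: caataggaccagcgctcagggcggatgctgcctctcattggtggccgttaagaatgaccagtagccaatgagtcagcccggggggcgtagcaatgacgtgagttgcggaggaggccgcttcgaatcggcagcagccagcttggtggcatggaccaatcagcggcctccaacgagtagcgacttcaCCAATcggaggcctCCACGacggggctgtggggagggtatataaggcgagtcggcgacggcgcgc
Syvn1, chr19:6046326-6046575, plus strand: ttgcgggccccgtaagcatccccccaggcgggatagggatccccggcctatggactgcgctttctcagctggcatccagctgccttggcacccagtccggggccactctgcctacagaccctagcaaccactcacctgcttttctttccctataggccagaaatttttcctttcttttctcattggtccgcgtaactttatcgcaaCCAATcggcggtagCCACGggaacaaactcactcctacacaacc
These matches describe letters in a window, and binding at them was not measured.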

How the data were processed

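Total RNA of 6 cultures was converted to biotin-labelled cDNA for Affymetrix mouse arrays, per the labels. The authors deposited linear intensities of 45101 probe sets. The submitters' processing notes name Partek, and how probes were summarised is not stated in the labels or headers read here. Each array had a trimmed mean of 500.0, taken over the values from percentile 2 to percentile 98. Intensities were put on log2(intensity + 1). The 64 control probe sets were left out, 34945 of 45037 probe sets had 1 gene in the platform annotation, 932 had several and 9160 none. Names were updated through RefSeq (GRCm38.p6), where 34741 probe sets had a matching Entrez identifier.

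Fits used limma 3.58.1 in R 4.3.3 (lmFit, eBayes, two-sided) over all 18193 genes, with Benjamini-Hochberg adjustment over all of them and a threshold of 0.05. The planned fit had no batch term and a constant prior, and the batch-term fit had replicate 3 against replicates 1 and 2 and a trended prior. Deviations from the group means correlated between equal replicate numbers at r = 0.39, 0.38 and 0.55 over 10880 genes. Replicates 1 and 2 correlated about as much across numbers (0.35 and 0.39), so these values do not show that their numbers mark pairs. The numbers were taken as pairs only in the replicate-block fits and in the differences by replicate number, not in the planned or the batch-term fit. The labels call the cultures biological replicates. The members, the lists and the batch-term fit were chosen with earlier results of these data known. Values on every array are given for the 3 members of each role with the smallest batch-term p and for 13 members fixed whatever their p. From each other list the genes past the threshold, at most 4, are named, with P4hb, Xbp1, Ern1, Atf6 and Eif2ak3 whatever their p, of which P4hb, Xbp1, Ern1 and Trib3 are given on every array; that choice of 4, Creld2 and the genes of the closing list were added after their values were seen. The number of arrays limits the precision.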

Additional observations from a re-analysis of the deposited data

How the results depend on the processing

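The median differences of all 44 members and of the 5 roles kept their sign under all 13 alternatives to the batch-term fit and without each array. The glycosylation median was -0.24 with the mean of all probe sets, against -0.15, and the degradation median 0.062, against 0.15. Members called lower by the batch-term fit (10) numbered 3 with median centring, 17 with array weights, 1 with no batch term, 0 with a constant prior, 4 with the replicate number as a block, 17 with replicates 1 and 2 alone and 2 to 17 without 1 array. Those called higher (1) numbered 2 with array weights, 0 with no batch term, 0 with a constant prior, 0 with the replicate block, 3 with replicates 1 and 2 alone and 0 to 2 without 1 array. Over all genes its 1382 calls became 659 with median centring, 2376 with array weights, 822 with the mean of all probe sets, 40 with no batch term, 2 with a constant prior, 544 with the replicate block, 2705 with replicates 1 and 2 alone and 373 to 2682 without 1 array. The planned fit called 0 members, but 1 lower with array weights, 1 lower with a trended prior, 4 lower with the replicate block and a trended prior, and 17 lower and 3 higher with replicates 1 and 2 alone and a trended prior. Its 1 call over all genes became 0 with quantile normalization, median centring, a robust prior, the first probe set by name, the replicate block with a constant prior or replicates 1 and 2 alone with a constant prior, 2 with the batch term, 4 with a pseudocount of 16, 11 with the filter at the 50th percentile, 40 with a trended prior, 120 with array weights, 544 with the replicate block and a trended prior, 2705 with replicates 1 and 2 alone and a trended prior, and 0 to 3 without 1 array. With the first probe set by name, Stt3a turned to 0.13 and Syvn1 to -0.19, neither of them called, because another probe set was read. The cause of the other changes was not tested.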

Other observations

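A list of 20 lysosomal, secreted and surface proteins, which pass through the ER, was looked at beside its machinery, and 19 of them were measured. The list was drawn up with earlier results of these data known, so its counts are no independent support. Of these 19 genes 7 rose and 0 fell in the batch-term limma fit. Over all genes the shares were 3.78% and 3.81%, and over the brighter genes 6.24% and 6.26%. All 19 differences were above 0, at a median of 0.26, while 50.8% of all genes and 52.5% of the brighter genes were below 0. With the replicate number as a block 2 of the 7 passed, Plau and Cd44, and the other 5 had limma adjusted p-values of 0.0770 to 0.138. The planned limma fit called 0 of them, with 4 at an unadjusted p under 0.05. Plau, the urokinase gene, had 13.63, 13.54 and 13.80 in low sodium, against 11.45, 11.35 and 9.91 in normal sodium, the widest difference of the list. Cd44, a hyaluronan receptor gene, had 13.67, 13.60 and 12.12 in low sodium, against 12.77, 12.69 and 11.46 in normal sodium. The lysosomal protease gene Ctsd had 14.65, 14.68 and 14.85 in low sodium, against 14.40, 14.37 and 14.28 in normal sodium. Low sodium was higher under each replicate number in these 3 genes, and in Plau and Ctsd the groups did not overlap. The other genes that rose were Gpnmb at 0.52 ± 0.11, Psap at 0.26 ± 0.058, Timp2 at 0.73 ± 0.14 and Itgb2 at 0.62 ± 0.14, and 1 cargo gene, Apoe, was below the median brightness of all probe sets (5.87) on all 6 arrays.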
